A study of Mus musculus with 6 samples.

Results

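The genes described here encode the ATG8 proteins of autophagy, several of its cargo receptors and an early kinase and lipid-binding protein of the same pathway, in mouse 3T3 fibroblasts after a GapmeR against the long non-coding RNA Ntep. They were taken as the non-control probes whose gene name on the array is Map1lc3a, Map1lc3b, Gabarap, Gabarapl1, Gabarapl2, Sqstm1, Nbr1, Optn, Ulk1 or Wipi1. All 10 genes are on the array, with 13 of its 55681 probes, and each of the 13 was bright enough to be tested and well above background on all 6 arrays. Gabarap has 3 probes, Wipi1 has 2 and every other gene has 1. A GapmeR is a chemically modified antisense oligonucleotide that recruits RNase H to the RNA it binds.

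3T3 is an established line of mouse embryonic fibroblasts. The cells were transiently transfected with GapmeR Ntep or with GapmeR control, a non-targeting oligonucleotide, both at 50 nM for 48 h. The experiment was done 3 times, with both GapmeRs each time, so that 3 arrays stand against 3. Only 1 cell line and 1 GapmeR against Ntep were profiled, and all 6 arrays shared a slide.

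Autophagy encloses cytoplasm in a double membrane, the autophagosome, and delivers it to the lysosome. The ATG8 proteins, of the LC3 and GABARAP subfamilies, are coupled to a lipid of the growing membrane. Selective receptors such as Sqstm1 (p62), Nbr1 and optineurin bind ubiquitinated cargo on one side and ATG8 on the other, and are themselves degraded with the cargo. Arrays measure transcripts, so the values below are levels of mRNA and not of the proteins or of autophagic flux.

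The single probes of the receptors, with which their mRNAs were measured, are shown as the array files give them, 5′ to 3′ and with mm9 positions. That of Sqstm1 lies at chr11:50015985-50016044 on the minus strand, that of Nbr1 at chr11:101441948-101442007 on the plus strand and that of Optn at chr2:4954187-4954246 on the minus strand.
Sqstm1: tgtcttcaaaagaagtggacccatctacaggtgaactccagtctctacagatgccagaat
Nbr1: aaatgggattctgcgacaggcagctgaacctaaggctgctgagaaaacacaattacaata
Optn: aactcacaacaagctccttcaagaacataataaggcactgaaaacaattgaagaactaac
The ATG8 genes are related in sequence, but no pair of the 13 probes shared a run longer than 12 of their 60 bases. The Gabarapl1 probe lies at chr6:129492254-129492313 on the plus strand. An annotation of mm9 was not used here, so exon and UTR positions of the probes are not given.

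The target itself did not separate the labels. The Ntep probe, named A630089N07Rik (mm9, chr16:98283712-98283771), read 472, 91.5 and 226 on the arrays labelled GapmeR Ntep and 271, 272 and 361 on the controls. It was above its control in experiment 1 and below it in experiments 2 and 3, with a log2 difference of -0.48 (SE 0.58, limma adjusted p = 0.632). Directions below rest on the labels. Among the GapmeR Ntep arrays, replicate 2 correlated as closely with the GapmeR control arrays (mean r of 0.983) as with its own label (0.982), while replicate 1 had 0.964 and 0.978. The values of the main genes are given with and without them.

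In the cultures treated with GapmeR Ntep, mRNA of 1 of the 5 ATG8 genes, Gabarapl1, and of 1 of the 3 receptors, Nbr1, was higher, each by somewhat less than 2-fold. Sqstm1 was shifted by as much, but its arrays varied more and it passed only when the experiments were paired. The other 7 genes did not pass the test. A gene was called when its brightest probe had an adjusted p under 0.05 (limma, two-sided, Benjamini-Hochberg over the 30990 tested probes). By that rule 2 of the 10 genes were called, both higher, where 6.01% of the 15242 tested genes were called in either direction and 2.33% as higher. The count of 2 did not survive every choice. It was 0 when any 1 of the 6 arrays was left out, where 0% to 4.87% of all genes were called. The study's rule, a fold change of at least 2 with an unadjusted p under 0.01, gave 0 as well, beside 9.12% of all genes.

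The plot of signals by array gives the 6 values of each gene, as quantile-normalized intensities on a linear scale. They can be compared between arrays for a gene, but not between genes.

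**Figure D1:**
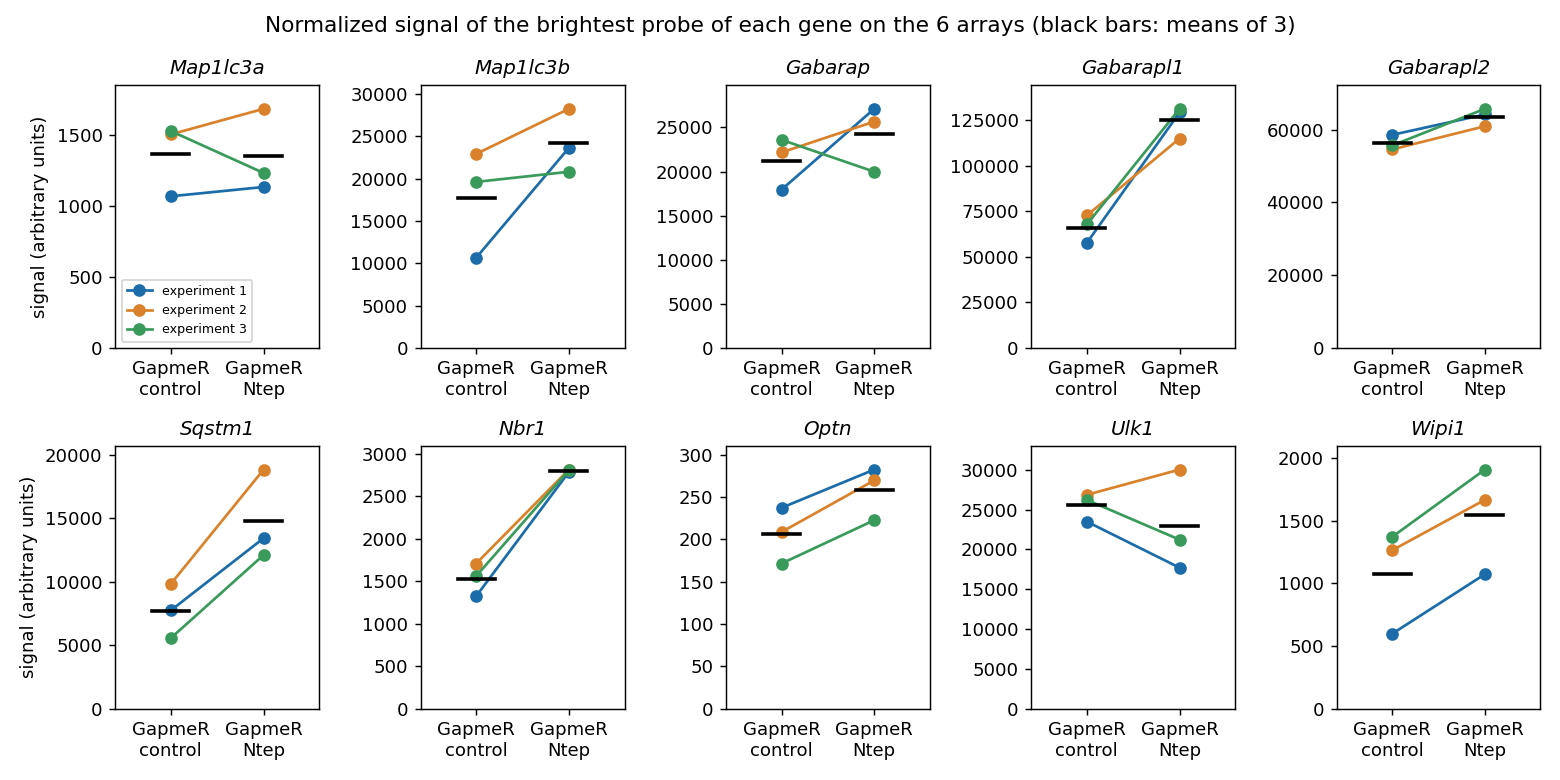
Quantile-normalized signal (arbitrary units, linear axes from 0) of the brightest probe of each of the 10 genes on the 3 GapmeR control and 3 GapmeR Ntep arrays. Lines join the cultures of an experiment and black bars are group means (n = 3). The 3 GapmeR Ntep arrays lie above all GapmeR control arrays for Gabarapl1, Gabarapl2, Sqstm1 and Nbr1, and the lines of Ulk1, Gabarap and Map1lc3a run in both directions.

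Among the ATG8 genes, Gabarapl1 was the one that passed by its brightest probe, and differences between ATG8 genes were not tested. It encodes a GABARAP subfamily protein that takes part in autophagosome maturation. In experiments 1, 2 and 3 its probe gave signals of 129259, 114956 and 131266 after GapmeR Ntep and of 57639.8, 72699 and 67762 after GapmeR control. All 3 GapmeR Ntep arrays were above every control array. The means were 125160 ± 8894 and 66033.5 ± 7677 (SD, n = 3 each), a log2 difference of 0.93 (SE 0.17, 95% confidence interval 0.51 to 1.35, limma adjusted p = 0.0412). Within the experiments the log2 differences were 1.17, 0.66 and 0.95. Leaving out 1 array kept the log2 difference between 0.83 and 1.00, but raised the adjusted p to between 0.0565 and 0.149.

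Gabarapl2, of the same subfamily and known as a modulator of transport within the Golgi as well, was steady between cultures. Its signal was 64146, 60916 and 65698.5 with GapmeR Ntep and 58541, 54549 and 55639.9 with GapmeR control. The groups did not overlap, yet the log2 difference was only 0.18 (SE 0.15, 95% confidence interval -0.19 to 0.54, limma adjusted p = 0.490). Signals that did not overlap between the labels were common on these arrays, with 36.2% of all genes in either direction and 17.8% as higher, and 4 of the 10 genes here were among them, all higher.

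Gabarap, which gives the subfamily its name, was first described as a partner of the receptor for γ-aminobutyric acid. Its brightest probe read 27109.8, 25665 and 19979.7 with GapmeR Ntep and 17941, 22164 and 23595 with GapmeR control, so that experiment 3 ran opposite to the other experiments. The log2 difference was 0.19 (SE 0.21, limma adjusted p = 0.594). Its 2 dimmer probes were higher in every experiment, with log2 differences of 0.33 (adjusted p = 0.297) and 0.97 (adjusted p = 0.162). The last of these starts 1773 bases before the brightest one on mm9 and gave signals of 736, 449 and 588 against 469.9, 255 and 217. The 3 probes thus ran from 0.19 to 0.97 in log2 difference, and none of them passed.

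In the LC3 subfamily, Map1lc3b encodes LC3B, the protein most used to mark autophagosomes, and its probe was spotted 10 times on each array. The spot means were 23647, 28259.6 and 20818 with GapmeR Ntep, against 10654, 22931 and 19619 with GapmeR control. The control array of experiment 1 lay far below the other 5, and the log2 differences by experiment were 1.15, 0.30 and 0.09. The log2 difference of 0.51 (SE 0.33, 95% confidence interval -0.28 to 1.31) had a limma adjusted p of 0.380. Without both arrays of experiment 1, an alternative chosen after seeing the data, it was 0.19.

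Map1lc3a, which encodes LC3A, lay at 1136, 1688 and 1235 with GapmeR Ntep and at 1070.2, 1507 and 1531 with GapmeR control. The groups overlapped throughout, and the log2 difference was -0.02 (SE 0.24, 95% confidence interval -0.62 to 0.57, limma adjusted p = 0.967). Of the 5 ATG8 genes, 4 were higher and 1 lower in mean, with a median log2 difference of 0.19.

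Of the 3 receptors, Nbr1 passed the test without pairing. Nbr1 encodes a receptor for ubiquitinated proteins and peroxisomes. Its signal was 2784, 2812 and 2805 with GapmeR Ntep, against 1323, 1707 and 1559.9 with GapmeR control. The GapmeR Ntep arrays had an SD of 14.3 and the controls one of 194, and the groups did not overlap. The log2 difference was 0.88 (SE 0.17, 95% confidence interval 0.47 to 1.29, limma adjusted p = 0.0441). Experiments gave 1.07, 0.72 and 0.85. Leaving out 1 array kept it at 0.78 to 0.96 with adjusted p-values of 0.0699 to 0.151, and scaling arrays to their 75th percentile gave an adjusted p of 0.0536.

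Sqstm1, a receptor for ubiquitinated cargo that also binds Keap1, had the largest log2 difference of the 10 genes by brightest probe. Its signal was 13436, 18844 and 12110.3 with GapmeR Ntep and 7746, 9833 and 5560.02 with GapmeR control. Every GapmeR Ntep array was above every control array, and both arrays of experiment 2 were the highest of their label and both of experiment 3 the lowest. The log2 difference was 0.95 (SE 0.29, 95% confidence interval 0.25 to 1.65, limma adjusted p = 0.110). With the experiments as blocks the SE was 0.15 and the adjusted p 0.0378, so the call depended on the pairing. By experiment the log2 differences were 0.79, 0.94 and 1.12.

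Optn encodes optineurin, a receptor for damaged mitochondria and intracellular bacteria. It was measured at 283, 269.9 and 223 with GapmeR Ntep and at 237, 209 and 172 with GapmeR control. The lowest GapmeR Ntep array lay below the highest control, and the log2 difference was 0.33 (SE 0.20, 95% confidence interval -0.16 to 0.82, limma adjusted p = 0.356). Experiments gave 0.25, 0.37 and 0.38. The intervals of all 3 receptors overlap, and no difference between receptors was tested.

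Neither of the early genes passed the test. Ulk1 encodes the kinase that starts autophagosome formation. Its signal was 17706, 30033 and 21227.5 with GapmeR Ntep and 23496, 26864 and 26223 with GapmeR control. It was lower in experiments 1 and 3 and higher in experiment 2, with a log2 difference of -0.18 (SE 0.24, 95% confidence interval -0.76 to 0.39, limma adjusted p = 0.655).

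Wipi1 encodes a protein that binds phosphatidylinositol 3-phosphate on forming autophagosomes. Its brighter probe read 1074, 1668 and 1909.7 with GapmeR Ntep against 598, 1265 and 1372 with GapmeR control. The experiments differed more from each other than the labels did, with experiment 1 lowest under both GapmeRs. The log2 difference was 0.57 (SE 0.40, limma adjusted p = 0.417), and 0.84, 0.40 and 0.48 by experiment. Without GapmeR control replicate 1 it was 0.19. The other probe, 8546 bases away on mm9, differed by 0.87 (SE 0.54, adjusted p = 0.370). With experiments as blocks that probe had an adjusted p of 0.0411 and the brighter one 0.0888.

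**Figure D2:**
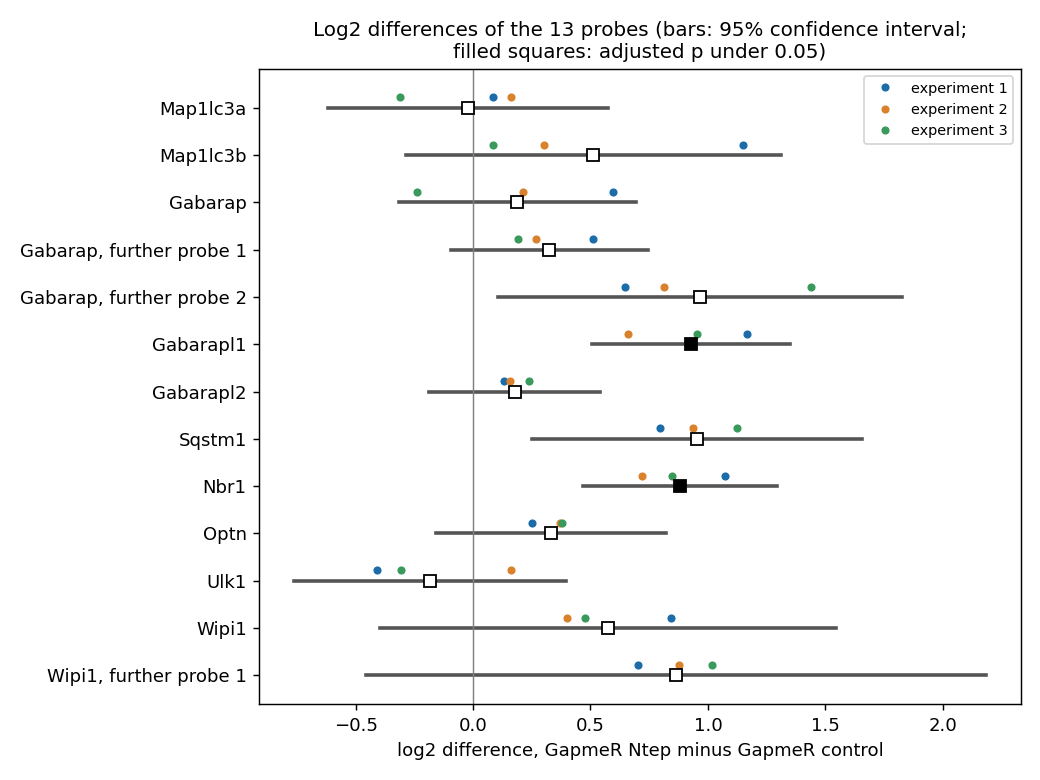
Log2 difference (GapmeR Ntep minus GapmeR control, x axis) of each of the 13 probes, with the brightest probe of a gene first. Squares are limma estimates over 3 against 3 arrays, filled where the adjusted p was under 0.05, bars are 95% confidence intervals and colored points are the differences within experiments. Gabarapl1 and Nbr1 are filled, at 0.93 and 0.88, and Sqstm1 at 0.95 has a wider interval.

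Over the 10 genes, 8 were higher and 2 lower in mean, with a median log2 difference of 0.42, against 0.00 over all tested genes, of which 50.2% were higher. In all 3 experiments alike, 7 of the 10 were higher, as were 31.2% of all genes. The medians by experiment were 0.70, 0.34 and 0.31. Without GapmeR control replicate 1 the median over the 10 genes was 0.20, and with array weights it was 0.26, with 7 genes higher and 3 lower. Unadjusted p-values under 0.05 were found for 3 of the 10, Gabarapl1, Nbr1 and Sqstm1, and for 28.1% of all genes. With experiments as blocks these 3 genes passed after adjustment, where 16% of all genes passed and 7.13% as higher. Without both arrays of experiment 1, Gabarapl1 stood at 0.81, Nbr1 at 0.78 and Sqstm1 at 1.03 in log2 difference, with adjusted p-values of 0.0719, 0.0671 and 0.200. Without GapmeR Ntep replicate 2 alone they stood at 0.99, 0.88 and 0.76, with adjusted p-values of 0.0565, 0.0699 and 0.181. Without GapmeR Ntep replicate 1 alone they stood at 0.90, 0.88 and 1.01, with limma adjusted p-values of 0.086, 0.086 and 0.189.

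The rest of the pathway, as plotted by role, did not share one direction. Lists of 68 further genes, chosen by their roles, cover initiation, membrane supply, ATG8 coupling, other receptors, fusion with the lysosome and regulation. Of these, 67 were tested (the probe of the protease gene Atg4a was too dim), 36 were higher and 31 lower, and the median log2 difference was 0.04. Called were 4 as higher and 1 as lower, beside 2.33% and 3.68% of all genes. With experiments as blocks 11 were called, all of them higher, beside 16% of all genes in either direction and 7.13% as higher. Of these 11, 4 were the genes called as higher without blocks. The other 7, named after their values were seen, were Atg14, Wdr45b, Atg16l1, Tax1bp1, Epg5, Rab7 and Mtor. Leaving out 1 array gave 0 to 4 calls, with 0 without GapmeR control replicate 1, 2 or 3 or GapmeR Ntep replicate 3, and 1 without GapmeR Ntep replicate 1. In these fits 0% to 4.87% of all genes were called.

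In the ULK kinase complex, 1 of 4 genes was called. Atg101, which stabilizes the complex and is named 9430023L20Rik on the array, had signals of 24676.5, 30086 and 27168 with GapmeR Ntep and 9558, 11578 and 9823 with GapmeR control. The groups were far apart, with a log2 difference of 1.40 (SE 0.17, limma adjusted p = 0.0243). Ulk1, whose kinase works in this complex, differed by -0.18.

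In the class III phosphoinositide 3-kinase complex, which makes the lipid that Wipi1 binds, none of 8 genes was called. An unadjusted p under 0.05, found for 28.1% of all genes, was found for 6 of them in both directions, with Pik3c3, Pik3r4, Atg14 and Nrbf2 above 0 and Ambra1 and Rubcn below. Atg14, which directs the complex to autophagosome formation, had the largest difference of this list. Its signal was 11431, 5261 and 6631 against 2626, 2469 and 2726 (log2 difference 1.50, SE 0.31, limma adjusted p = 0.0504). All 3 GapmeR Ntep arrays were above the controls, and with blocks its adjusted p was 0.0422.

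Among 8 genes of membrane delivery and lipid transfer, 3 were higher, 5 lower and none called. Wdr45b, a relative of Wipi1 named Wdr45l on the array, was the furthest from 0 at 0.97 (adjusted p = 0.0641, with blocks 0.0368), its further probes giving 0.90 and 0.24. The machinery that couples ATG8 proteins to lipid had no call among 9 tested genes, of which 5 were lower in mean. With blocks Atg16l1, which directs the coupling to the membrane, passed (log2 difference 0.72, limma adjusted p = 0.0522 without and 0.0475 with blocks). The enzyme Atg7, which activates ATG8 for coupling, had signals of 1348, 1524.5 and 1126 with GapmeR Ntep and 3564, 2259 and 2917 with GapmeR control. The groups did not overlap, and the log2 difference was -1.11 (SE 0.24, limma adjusted p = 0.0529). A dimmer Atg7 probe, above background on 5 arrays, gave -1.16 (SE 0.83, limma adjusted p = 0.433).

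Of 16 other selective receptors, 10 were lower, 6 higher and 1 called. Tollip, an adaptor that binds ubiquitin and ATG8, had signals of 21070.5, 14650 and 18733 against 7498, 6985 and 7380.5. It was higher by 1.30 (SE 0.19, limma adjusted p = 0.0294), with 1.66 and 1.37 by its further probes. The median of this list was -0.10, and that of Nbr1, Sqstm1 and Optn was 0.88, the value of Nbr1. A difference between the 2 lists was not tested.

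Fusion with the lysosome held calls in both directions among 8 genes, with a median of 0.65. Snap29, a SNARE protein of autophagosome fusion, was higher by 1.04 (SE 0.19, limma adjusted p = 0.0401), with 0.27 (adjusted p = 0.399) by a dimmer probe. Plekhm1, an adaptor that links Rab7 to the fusion machinery, was lower by mean signals of 760.03 ± 201 against 1785 ± 175 (SD, n = 3 each). Its log2 difference was -1.27 (SE 0.25, limma adjusted p = 0.0477, with blocks 0.0526). Of 14 regulators 1 was called: Foxo3, a transcription factor of autophagy genes, at 1.33 (SE 0.25, limma adjusted p = 0.0419), while a dim second probe gave 0.20.

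**Figure D3:**
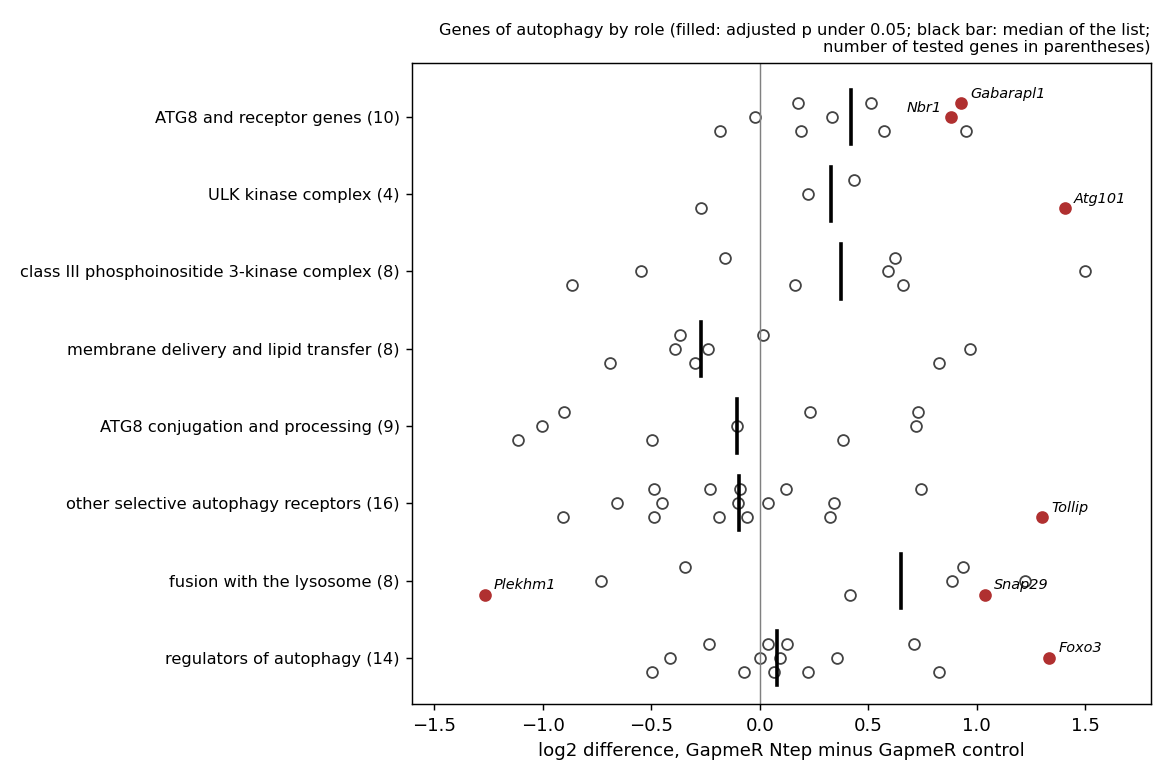
Log2 difference (GapmeR Ntep minus GapmeR control, x axis) of the brightest probe of each tested gene, by role in autophagy, with the 10 ATG8, receptor and early genes in the top row. Filled points had a limma adjusted p under 0.05 and black bars are list medians. Medians run from -0.27 for membrane delivery to 0.65 for fusion, with 0.42 in the top row.

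Over the 6 arrays, Cnksr1, Ttc14, Pias4 and Rffl were among the 5 genes most like Sqstm1, of 12413 genes above background on all arrays. Likeness was the root mean square difference of log2 values, each gene set to the mean of its control arrays, and it was 0.17 to 0.23 for these 4. Their log2 differences between the labels were 0.97, 0.77, 0.84 and 1.06, which the choice by likeness to Sqstm1 on the same arrays fixes near its value.

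Of 10 fibroblast markers, 9 were above background on all arrays, and their summed signal ran from 555675 to 737369 with GapmeR Ntep and from 808084 to 891112 with GapmeR control. Lum was above background on 1 array and was not tested. Of the 9 tested fibroblast markers, 8 were lower and 1 higher in mean, and none was called, beside 6.01% of all genes. Macrophage markers summed to between 42490 and 75276 against 19959 to 27448, with Csf1r, Cd68, Itgam and Cd14 above background on all arrays. Lyz2 was above background on 2 GapmeR Ntep arrays and 1 GapmeR control array. Adgre1, Ptprc, Tyrobp, C1qa and Fcgr3 were not above background on any array. The log2 differences were 3.19 for Csf1r, 1.21 for Cd68, 1.26 for Itgam, 1.11 for Cd14 and -0.18 for Lyz2. Their limma adjusted p-values were 0.151, 0.0287, 0.0881, 0.0627 and 0.746. Of 5 epithelial markers 3 were above background on all arrays (sums 3307 to 7577 against 2974 to 3925), as were 2 of 5 endothelial ones (748 to 826 against 579 to 666). The part of these shifts in the results above was not tested. In bulk RNA, fewer cells of a type and less RNA per cell cannot be told apart.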

How the data were processed

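Each of 6 RNA samples, from 6 cultures, was read on an Agilent mouse expression array with a single dye, and all 6 were used (the methods and the supplementary documentation of the study name different formats of the array). The authors deposited background-subtracted scanner intensities per array (Agilent Feature Extraction 10.7.3.1, per the labels' processing notes), not normalized between arrays, and a table of quantile-normalized intensities with values under 20 set to 20, used here as an alternative. Between 43.7% and 53.3% of probes per array were well above background and none was saturated. The 6 arrays limit the precision.

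Spots of a probe were averaged, arrays quantile normalized, values under 20 set to 20, and log2 values compared without pairing (limma 3.58.1, R 4.3.3, package data.table at version 1.17.8). Tested were the probes whose mean reached 50 under either label, two-sided, with Benjamini-Hochberg adjustment over all of them. The brightest tested probe (mean of 6 arrays) stood for a gene in counts. Array names were matched to genes through RefSeq's gene list for GRCm38.p6, which named 31239 of 55681 probes for 22942 genes, of which 15242 were tested; positions of probes on mm9 were read from the scanner files. The pipeline was run on simulated data to check the code. The simulated experiments shared more of their spread than these arrays did, so the run gives no error rates for them.

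The members, the pathway and marker lists and the alternatives were chosen with earlier results of these data known. Named were all members, per pathway list the genes called (at most 5) or else the gene with the largest difference above background on all arrays, the Ntep probe, and the 5 genes most like the member with the largest difference, of which 1 is not reported here. Replicate numbers follow the order of the arrays, which the study's documentation pairs by culture day. Residuals of arrays from the same day had correlations of 0.466, 0.300 and 0.254, so experiments were also fitted as blocks. Arrays from different days had -0.327 to 0.126. The residuals of a label cancel out by construction, so these values are partly fixed by the same-day ones. Alternatives were 75th percentile scaling, normexp, the authors' values, floors of 5 and 50, filters on dim probes, blocks, the methods' t-test and trend. Further ones were array weights, removal of outlier spots, the study's cutoffs on limma p-values, any probe of a gene and leaving out each array. Leaving out both arrays of experiment 1 was chosen after seeing the data.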

Additional observations from a re-analysis of the deposited data

How the results depend on the processing

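The count of 2 genes called among the 10 was unchanged with normexp, the authors' normalized values and floors of 5 and 50. It was also unchanged with only probes above background, trend, array weights, removal of outlier spots and any probe of a gene. With experiments as a replicate block it was 3. The share of all genes called did move, from 6.01% to 10.3% with normexp, 11.1% with trend and 12.5% with only probes above background. It was 16% with the replicate block and 37.5% with array weights. The count among the 10 was 1 with 75th percentile scaling, which moves the median of all genes to 0.13 and called 4.69% of them. It was 0 without a filter on dim probes (2.06% of all genes called) and with the methods' t-test (1.12%). It was also 0 by fold 2 and p 0.01 (9.12%) and without experiment 1 (0%). Leaving out 1 array gave 0 calls each time, where 0% to 4.87% of all genes were called. Gabarapl1, Nbr1 and Sqstm1 kept their direction in all settings, with log2 differences of 0.81 to 1.16, 0.74 to 0.96 and 0.74 to 1.15. The 5 calls among the other autophagy genes became 3 with 75th percentile scaling, 18 with normexp, 8 with a floor of 50, 2 without a filter on dim probes, 17 with only probes above background, 11 with the replicate block, 2 with the methods' t-test, 15 with trend, 31 with array weights, 9 by fold 2 and p 0.01 and 0 without experiment 1, and 0 to 4 without 1 array. Over all genes, 916 calls became 1565 with normexp, 314 without a filter on dim probes, 1669 with only probes above background, 2444 with the replicate block, 170 with the methods' t-test, 1689 with trend, 5720 with array weights, 1390 by fold 2 and p 0.01 and 0 without experiment 1, and 0 to 743 without 1 array, with 0 without GapmeR control replicate 2 or GapmeR Ntep replicate 3. The cause of these moves was not tested. Some settings also had fewer arrays or another number of tested probes. Other normalizations and floors used the same tested probes. Differences near 0 changed sign: Gabarap was -0.091 with array weights and -0.014 without experiment 1, and Map1lc3a ran from -0.19 to 0.10 without 1 array (above 0 in 4 of 6 cases). The Ntep probe, at -0.48 with an SE of 0.58, also changed sign. It ran from -1.06 to 0.13 without 1 array, above 0 without GapmeR Ntep replicate 2. The replicate block changed the calls of Sqstm1, Atg14, Wdr45b and Plekhm1 and of dimmer probes of Wipi1, Tollip and Wdr45b, and, among the other genes named from the autophagy lists, those of Atg16l1, Tax1bp1, Epg5, Rab7 and Mtor. Of the macrophage markers named, Cd68 passed both in the unpaired fit and with the block. Csf1r, Itgam and Cd14 passed with the block and not in the unpaired fit.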
